A study of Rattus norvegicus with 20 samples.

Results

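CK-19-positive nodules of the rat liver were compared with control liver over all genes measured on 1-colour Illumina RatRef-12 arrays. The comparison used 5 arrays of CK-19-positive nodules and 5 arrays of control liver, 10 of the 20 arrays of the series. The other 10 arrays, 5 of CK-19-negative nodules and 5 of early preneoplastic foci (EPFs), served to ask where the difference from control was particular to the CK-19-positive nodules. All lesions came from male Fischer rats taken through the Resistant-Hepatocyte (R-H) model: a single dose of diethylnitrosamine (DENA) and, 2 weeks later, a diet with 0.02% 2-acetylaminofluorene (2-AAF) for 2 weeks combined with partial hepatectomy (PH). Nodules were laser-microdissected 10 weeks after DENA, which is 7 weeks after PH, and each nodule array held RNA of a single nodule. EPFs were taken 7 days after PH and were pooled. Control RNA came from age-matched normal liver. A nodule counted as CK-19-positive where at least 5% of its area stained for cytokeratin 19, and the nodules came from 4 to 5 animals, but which rat gave which array is not stated in the labels. A p-value therefore measures only the spread between arrays, part of which may be technical. Each array read the RNA of every cell in the area taken, so fewer cells of a type and less RNA per cell cannot be told apart.

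Cytokeratin 19 is an intermediate filament protein that adult liver makes in bile duct epithelium and not in mature hepatocytes. In the R-H model, hepatocytes initiated by the carcinogen keep dividing while 2-AAF blocks the others, and the foci that result are recognised by the placental form of glutathione S-transferase, Gstp1. NRF2 is a transcription factor that is held by KEAP1 and, once released, binds antioxidant response elements near the genes of glutathione synthesis, NADPH-dependent reduction and conjugation of xenobiotics. Mature male hepatocytes are known, in contrast, by cytochrome P450 enzymes, bile acid synthesis, amino acid breakdown and a set of male-specific genes that depend on pulses of growth hormone.

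Krt19, which encodes cytokeratin 19, checked the labels, since nodules were sorted by its protein. Its normalized signals were 7686, 3549, 3507, 2790 and 2738 on nodules 1 to 5 and 236, 206, 248, 222 and 210 on controls 1 to 5. Every nodule lay above every control, and nodule 1 stood far above the other nodules. All 5 CK-19-positive nodules were hybridised on chip 1 of 4 chips, together with controls 1 and 2 and CK-19-negative nodule 5, and the other controls were on chips 2 and 3. Control 5 stood apart from its group: 59 genes lay at least 2-fold above and 44 at least 2-fold below the mean of the other controls on that array, against at most 16 on any other control. All arrays had the same distribution of signals after the authors' quantile normalization, so their totals do not differ, and the number of arrays limits the precision.

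A gene was tested when its signal exceeded 200 on at least 5 arrays, and it was called when limma gave an adjusted p under 0.05 with at least 2-fold change. Fold changes are the ratio of geometric means, and log2 fold changes are nodules over control with their SE. Of 6102 genes tested, 302 were called higher (4.95%) and 299 lower (4.9%) in CK-19-positive nodules, 601 in all (9.85%). The median log2 fold change of all genes tested was -0.01, and at an unadjusted p under 0.05 26.5% were higher and 26.3% lower. Arrays of nodules and controls did not overlap for 299 of the genes called higher and 285 of those called lower, beside 1893 genes, or 31% of all tested, whose arrays did not overlap. A log2 change of at least 2 was measured for 84 of the higher genes and 59 of the lower genes, and a change of at least 4 for 14 and 3. In 43 of the higher genes all controls were under 200, and in 18 of the lower genes all nodules were. For those genes the dim signals were set to 200 and the fold is given as a lower bound. With the arrays of chip 1 alone, 586 genes were called, and without control 5, 598.

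**Figure D1:**
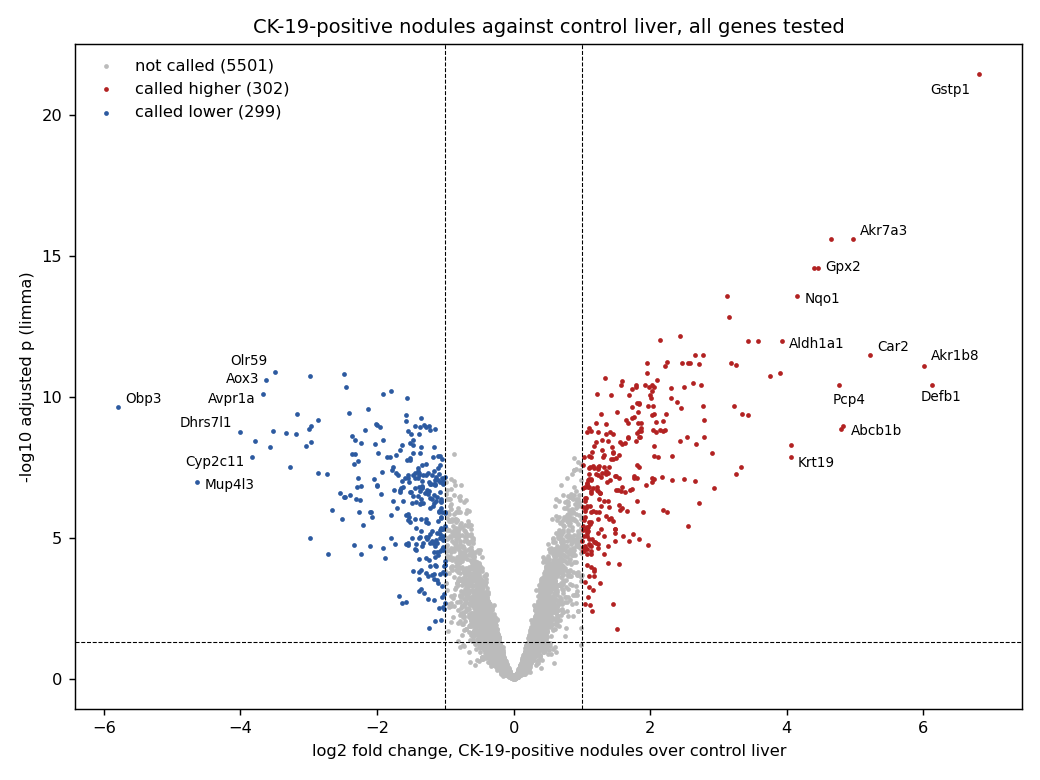
Each point is 1 of 6102 genes, with the log2 fold change of CK-19-positive nodules over control liver on the x axis and -log10 of limma's adjusted p on the y axis; dashed lines mark the 2-fold and adjusted p thresholds. The 302 higher genes reached further from 0 than the 299 lower genes, with Gstp1 at 6.82 and Obp3 at -5.79.

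Many of the largest rises were in enzymes of detoxification and redox defence. Of 28 tested members of a list of NRF2 target genes, 19 were called higher and none lower by limma, with the same counts by the methods' t-test, and none was lower at an unadjusted p under 0.05. The median log2 fold change of the list was 2.32, and by adjusted p alone 26 of the 28 were higher, beside 23.4% of all genes tested. This and the other gene lists were written with earlier results of these data known, so their counts are a description and no test. Gstp1, the glutathione transferase that marks these lesions, gave signals of 42071, 42749, 43418, 41256 and 41256 on nodules 1 to 5 and 372, 261, 392, 449 and 419 on controls 1 to 5. The nodule signals were tight and lay close to the highest value of the table, which bounds what the array could show. The rise was 113-fold (log2 fold change 6.82 ± 0.11, adjusted p = 3.49e-22, limma), and a second, dimmer probe of Gstp1 rose 55.4-fold from 302 ± 32.8 to 16693 ± 1114 (SD, n = 5).

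Both subunits of the enzyme that limits glutathione synthesis rose. Gclc, the catalytic subunit, had signals of 32810, 37745, 31219, 29940 and 26901 on nodules 1 to 5 against 2049, 2196, 2305, 1986 and 3369 on controls 1 to 5. The nodules lay near the top of the scale, and control 5 was the highest control. The rise was 13.5-fold (3.76 ± 0.23 on the log2 scale, adjusted p = 1.82e-11, limma). Gclm, the modifier subunit, gave 27334, 25191, 20573, 17975 and 18672 on the nodules and 3356, 4070, 3155, 2178 and 3225 on the controls, with no overlap, a 6.91-fold rise. Gss, glutathione synthetase, rose by 2.04 on the log2 scale and Gsr, which regenerates reduced glutathione, by 2.19 ± 0.28. Gpx2, a glutathione peroxidase known from the intestinal epithelium, rose 22-fold, from 160 to 271 on the controls to 4324, 6188, 3383, 3800 and 4375 on nodules 1 to 5. Gpx1, the peroxidase most abundant in liver, fell by 1.17 on the log2 scale, but was not called on chip 1 alone. Of 18 tested genes of glutathione and thioredoxin metabolism, 7 were called higher and 1, Gpx1, lower (median 0.72). Txnrd1, the cytosolic thioredoxin reductase, rose 6.13-fold (2.62 ± 0.17), while the mitochondrial Txnrd2 had a log2 fold change of -0.68 and was not called.

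The promoters of the list's called members were read for the core letters of the antioxidant response element, TGACNNNGC on either strand, because these genes moved together. The windows were RefSeq promoters of build GRCr8, from 250 bases before to 50 after the annotated start, and 22 of the 28 list members and 15 of the 19 called higher had such a window. The letters were present in 5 of those 15 (33.3%), beside 12.2% of all 27457 promoters, 15.3% of the genes tested, 18.7% of the genes called higher (45 of 241) and 13.8% of the genes called lower. Over all tested members with a window they were present in 6 of 22 for the NRF2 list (27.3%) and in 6 of 23 for the plasma protein list (26.1%). A match of letters is a description and no binding site. The 250 bases before the start are printed for these 5 genes, with the match in capitals. Gstp1 (GRCr8 chr1:210769706-210769955, minus strand) held it 61 bases before the start (counted from the first capital), and its match also spells TGACTCA, the letters of the AP-1 site. Gpx2 (chr6:101230034-101230283, minus strand) held it at 13, Gsta3 (chr9:31154739-31154988, plus strand) at 17, Gclm (chr2:213031885-213032134, plus strand) at 172 and Ugdh (chr14:43202268-43202517, plus strand) at 207 bases before the start, and in Gpx2, Gclm and Ugdh the capitals are the match's complementary strand.
Gstp1: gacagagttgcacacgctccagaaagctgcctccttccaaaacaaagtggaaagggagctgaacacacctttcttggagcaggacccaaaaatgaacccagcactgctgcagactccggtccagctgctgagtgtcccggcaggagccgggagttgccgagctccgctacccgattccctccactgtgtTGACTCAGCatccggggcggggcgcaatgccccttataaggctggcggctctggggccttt
Gpx2: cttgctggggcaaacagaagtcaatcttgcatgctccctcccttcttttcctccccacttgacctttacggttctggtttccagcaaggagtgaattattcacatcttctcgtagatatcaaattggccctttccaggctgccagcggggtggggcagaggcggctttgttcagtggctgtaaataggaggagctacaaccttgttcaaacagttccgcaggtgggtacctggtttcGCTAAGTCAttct
Gsta3: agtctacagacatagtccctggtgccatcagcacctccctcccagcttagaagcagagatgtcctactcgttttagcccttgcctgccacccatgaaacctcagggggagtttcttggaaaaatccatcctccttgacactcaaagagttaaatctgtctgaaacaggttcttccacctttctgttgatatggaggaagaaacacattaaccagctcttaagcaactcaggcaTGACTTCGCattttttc
Gclm: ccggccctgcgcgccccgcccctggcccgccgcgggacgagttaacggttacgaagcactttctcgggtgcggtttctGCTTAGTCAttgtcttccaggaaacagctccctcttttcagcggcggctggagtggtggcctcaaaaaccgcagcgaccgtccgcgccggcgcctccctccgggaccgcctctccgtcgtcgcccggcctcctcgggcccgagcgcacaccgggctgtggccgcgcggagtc
Ugdh: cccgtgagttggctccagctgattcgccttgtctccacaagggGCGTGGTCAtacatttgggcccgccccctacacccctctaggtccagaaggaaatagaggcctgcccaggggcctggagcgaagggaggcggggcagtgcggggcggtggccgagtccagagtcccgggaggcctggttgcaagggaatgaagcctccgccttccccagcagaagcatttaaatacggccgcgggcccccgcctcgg

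Among the glutathione S-transferases, 6 of 20 tested rose and 1 fell (median 0.68). Gsta3, an alpha class enzyme, was dim on every control, at 155, 164, 156, 144 and 180, and reached 5666, 4413, 3950, 2698 and 3779 on nodules 1 to 5. Its rise was at least 19.9-fold (fitted log2 fold change 4.65 ± 0.15, adjusted p = 2.41e-16, limma). Gsta4, which conjugates lipid peroxidation products, rose 3.08-fold, Gsta2 2.66-fold, Gstm1 by 1.36 and Mgst2 by 1.21 on the log2 scale. Gstm7 fell 3.3-fold, from 2004 ± 103 in control liver to 622 ± 145 (SD, n = 5). Transferases of a class share long stretches of sequence, so a probe may also read a close relative.

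Several enzymes that reduce reactive carbonyls and quinones also rose. Akr1b8, an aldo-keto reductase, was under 200 on every control (152, 173, 171, 183 and 142) and gave 10730, 16204, 10730, 8731 and 7941 on nodules 1 to 5. This was a rise of at least 52.6-fold (6.01 ± 0.35, adjusted p = 7.71e-12, limma), with nodule 2 highest. Akr7a3, an aflatoxin aldehyde reductase, rose 31.3-fold from 715, 877, 732, 468 and 508 on the controls to 21403, 21675, 20809, 14696 and 23304 on the nodules. Nqo1, the NAD(P)H quinone reductase, rose 17.7-fold, with 12260, 16356, 11025, 13665 and 13758 on nodules 1 to 5 and 684, 689, 651, 769 and 1001 on controls 1 to 5. Ptgr1, a prostaglandin and alkenal reductase, rose 11.9-fold to 22179 ± 2621, and Aldh1a1, a retinaldehyde dehydrogenase, 15.2-fold to 28465 ± 3154 (SD, n = 5). Of 22 tested genes of the aldo-keto, carbonyl and aldehyde group, 9 rose and 2 fell. Those that fell were Aox3, an aldehyde oxidase, and Akr1c3, a steroid-reducing aldo-keto reductase. Aox3 dropped from 2159, 1977, 2488, 2202 and 2461 on controls 1 to 5 to 159, 180, 216, 193 and 172 on the nodules, 12.3-fold, with 4 of the 5 nodules under 200, while its relative Aox1 rose by 1.63 on the log2 scale. Taldo1, transaldolase of the pentose phosphate pathway, rose 3-fold (1.59 ± 0.10), and the other 4 tested genes of NADPH supply (Pgls, Rpia, Me1 and Idh1) had log2 fold changes between -0.15 and 0.42, with none called.

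Of the glucuronidation list 5 of 11 tested genes rose and none was called lower by limma or by the methods' t-test, with 1 lower at an unadjusted p under 0.05. Without nodule 3, 1 gene of the list was called lower. Ugdh, which makes the sugar donor UDP-glucuronic acid, rose 5.48-fold, from 4212, 5223, 3665, 2978 and 3723 on controls to 21879, 26267, 22516, 17262 and 19781 on nodules. Ugt1a6, a transferase for planar phenols, rose 9.55-fold from 169, 185, 185, 154 and 281 to 1494, 3322, 2075, 1255 and 1537, and nodule 2 was again highest. Ugt2b7 was dim on every control and rose at least 4.73-fold, with 776, 2820, 941, 557 and 660 on nodules 1 to 5, of which nodule 2 was far above the rest. Ugt1a1, the bilirubin transferase, had a log2 fold change of -0.57 and was not called. Probes within the Ugt1a and Ugt2b families may also share targets.

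Some export pumps rose and several uptake carriers fell. Abcb1b, a P-glycoprotein drug efflux pump, gave 194, 213, 269, 186 and 132 on controls 1 to 5 and 5231, 6859, 5062, 4427 and 5709 on nodules 1 to 5, a 27.8-fold rise (4.80 ± 0.39, adjusted p = 1.4e-09, limma). Abcc3, the basolateral exporter of glucuronides and bile acids, rose 21.1-fold from 226, 235, 216, 230 and 189 to 5603, 4693, 3875, 3555 and 5742. The 2 groups were far apart for both pumps. Of the uptake carriers, Slco1b2 fell 4.14-fold from 12689, 13665, 11563, 9318 and 8545 on controls to 2270, 1757, 3572, 3476 and 2641 on nodules, Slc22a8 4.05-fold, and Slc10a1, the sodium-dependent bile acid carrier, by 1.44 on the log2 scale. Of 15 tested transporters 4 rose and 6 fell. The others that rose were Abcg5, a sterol exporter, at 1.48, and Slc17a3, a renal-type organic anion and phosphate transporter, which rose 6.82-fold.

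**Figure D2:**
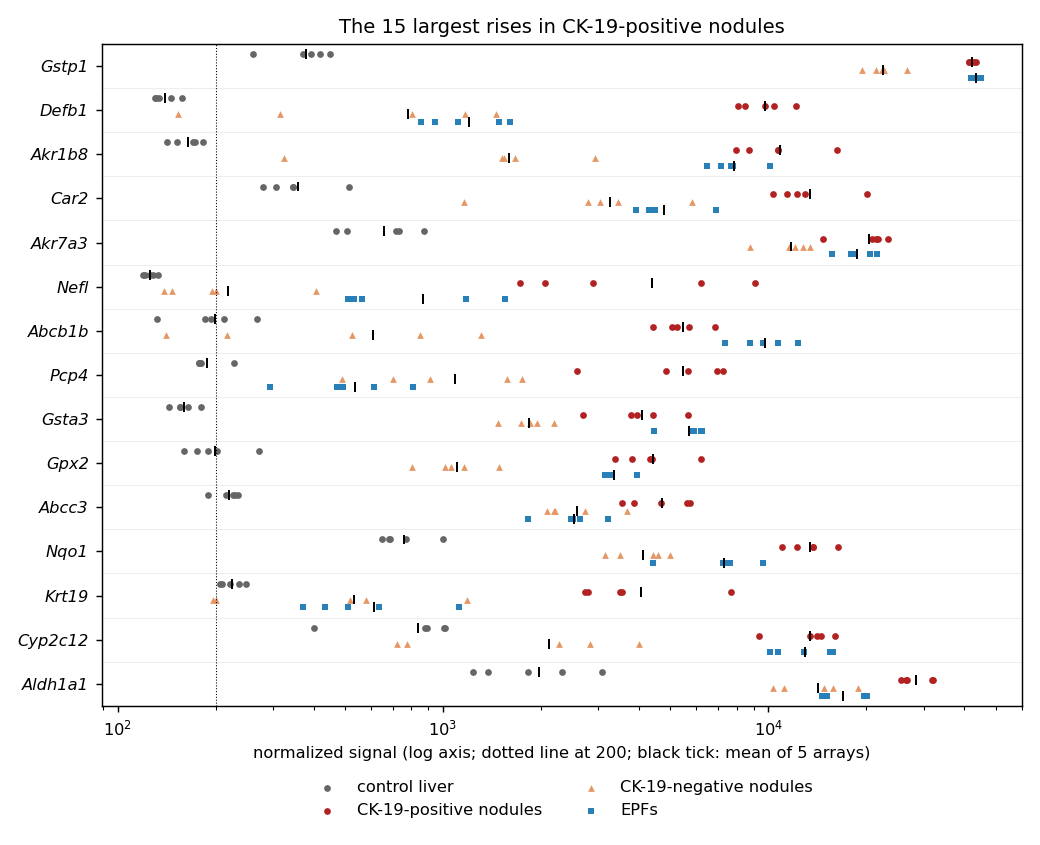
Normalized signal (log axis) of the 15 genes with the largest rises, 1 point per array in 4 groups of 5 arrays; black ticks are group means and the dotted line marks 200. All CK-19-positive nodules lay above all controls for each gene, and for all of them but Abcc3 they also lay above all CK-19-negative nodules.

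Other genes with large rises lay outside detoxification. Defb1, a beta-defensin of epithelial surfaces, was under 200 on every control, at 134, 130, 158, 146 and 131, and 9789, 8089, 8482, 10391 and 12139 on nodules 1 to 5. The nodules were within a narrow range, and the rise was at least 48.4-fold (6.12 ± 0.39, adjusted p = 3.66e-11, limma). Car2, carbonic anhydrase 2, rose 37.3-fold, with 12234, 20161, 12982, 11387 and 10328 against 345, 306, 514, 279 and 347. Pcp4, a small calmodulin-binding protein named for Purkinje cells, rose 27.3-fold, with 5649, 2587, 7231, 4833 and 6955 on the nodules and 181, 178, 179, 178 and 228 on the controls. Nefl, the light neurofilament subunit, was at 133, 121, 128, 120 and 126 on controls 1 to 5 and at 9122, 6213, 2894, 2054 and 1727 on nodules 1 to 5. Its rise was at least 17.9-fold (4.83 ± 0.39, adjusted p = 1.07e-09, limma), and the nodules differed among themselves more than for most genes. Tceal9 rose 15-fold from 251 ± 17.6 to 3925 ± 1384 (SD, n = 5).

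Markers of bile duct epithelium and of progenitor cells rose in part. Of 14 tested members 5 were called higher and 1 lower (median 0.73). Besides Krt19, which was used to sort the nodules, these were Cd24, Ctse, Epcam and Anxa4. Cd24, a surface glycoprotein of progenitor cells, gave 2832, 3293, 2738, 2233 and 3587 on nodules 1 to 5 and 296, 297, 274, 198 and 300 on controls 1 to 5, a 10.7-fold rise. Epcam, the epithelial adhesion molecule of bile ducts, rose 6.8-fold from 385, 366, 465, 368 and 444 to 3670, 2873, 2430, 2734 and 2231. Ctse, the aspartic protease cathepsin E, known from gastric epithelium, rose 10.2-fold from 197, 206, 216, 200 and 241 to 2911, 3073, 2277, 1905 and 1187. No nodule came near a control in these 3 genes. Spp1, Prom1, Aqp1, Itgb4 and Fgfr2, which also belong to the list, had log2 fold changes from -0.07 to 0.54 and were not called. Onecut1, a transcription factor of hepatoblasts and bile ducts, fell 4.73-fold, from 1433, 3192, 1926, 6600 and 2947 on controls, which spread widely, to 507, 646, 669, 796 and 415 on nodules. Of 6 tested fetal and tumour markers, Lgals3, Gpc3 and Aldoa rose 2.22-fold, 2.18-fold and 2.12-fold, Spink1l fell 2.59-fold, and Afp and Mdk were not called (-0.92 and -0.14). Aldoa was not called without nodule 1 or control 5 (log2 fold change 0.99 each) nor Lgals3 without nodule 2 (1.00), and Gpc3 dropped to 0.51 when signals under 300 were raised to 300. A second Aldoa probe rose 2.77-fold.

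Genes of the cytoskeleton also rose in part. Of 25 tested keratins, tubulins and actin-associated genes 11 were called higher and none lower by limma or the methods' t-test, and none was lower at an unadjusted p under 0.05 (median 0.86). Krt8, the keratin of all hepatocytes, rose 3.45-fold, with 20374, 20694, 16552, 21675 and 24092 on nodules 1 to 5 and 6426, 7009, 6316, 5817 and 4487 on controls 1 to 5. Tubb6, a beta-tubulin, rose 10.8-fold from 262, 256, 221, 200 and 244 to 2615, 3526, 2641, 1872 and 2286. The tubulins Tuba1a, Tuba1b, Tubb4b and Tubb5 rose by 1.17, 1.06, 1.04 and 1.09 on the log2 scale, whereas Actb, beta-actin, had a log2 fold change of 0.36 and was not called. Tagln2, an actin-bundling protein, rose 2.93-fold.

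Among annexins, S100 proteins and galectins, which bind calcium, membranes or sugars, 9 of 19 tested rose and none was called lower by limma or the methods' t-test, with 1 lower at an unadjusted p under 0.05 (median 0.95). Anxa2, a phospholipid-binding annexin, gave 2660, 2448, 1986, 2173 and 2466 on nodules 1 to 5 and 231, 243, 281, 313 and 253 on controls 1 to 5, an 8.89-fold rise (3.15 ± 0.14, adjusted p = 1.44e-13, limma). Anxa5 rose 5.68-fold and Anxa1 4.17-fold, from 313 ± 29.9 to 1366 ± 495 (SD, n = 5). S100a11 rose 7.44-fold with 6156, 2244, 3329, 4008 and 4833 against 457, 448, 532, 785 and 456, and S100a6 3.84-fold. Within the nodules S100a11, S100a6 and Anxa1 were each highest on nodule 1. S100a4, a marker of mesenchymal cells, had a log2 fold change of 0.00, and Lgals1 of 0.95; neither was called.

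Markers of other cells were read on the same arrays. The biliary and progenitor list summed to 15937 to 24462 on nodules and 6520 to 11295 on controls. The sum includes Krt19, at 2738 to 7686 on nodules and 206 to 248 on controls. As nodules were sorted by its protein, that part of the difference was set by the sorting. Of 15 tested genes of stellate cells and fibroblasts 4 were called higher (Col1a2, Timp1, Col4a1 and Dcn; median 0.63), with the log2 fold change of Dcn at 0.92 without control 1 and 0.90 without nodule 2, and the summed signal of the list was 24551 to 34762 on nodules and 22612 to 29508 on controls. Col1a2, a chain of type I collagen, rose 3.15-fold with 6201, 4915, 3974, 3838 and 5141 on the nodules and 1202, 1269, 1510, 1428 and 2341 on the controls, while Col1a1, its partner chain, had a log2 fold change of 0.63 and was not called. Vim and Des, which define mesenchymal and stellate cells, had log2 fold changes of 0.57 and -0.11. Of 13 tested macrophage markers 1 was called and 12 were not (list median 0.17), beside 9.85% of all genes tested that were called in either direction. The 1 called was Marco, a scavenger receptor of Kupffer cells, which fell 4.73-fold from 1360, 1793, 1254, 2146 and 1128 to 189, 433, 268, 457 and 310. The summed macrophage signal was 22218 to 32612 on nodules and 20571 to 31531 on controls. No marker of lymphocytes (6 tested), endothelial cells (8) or hepatocytes (10) was called by limma or the methods' t-test. At an unadjusted p under 0.05, none of the lymphocyte markers, 4 of the endothelial markers and 7 of the hepatocyte markers differed, beside 52.8% of all genes tested. Of the endothelial markers 3 were higher and 1 lower in nodules, and of the hepatocyte markers 6 were higher and 1 lower. Hepatocyte markers summed to 325653 to 350530 on nodules and 239569 to 370821 on controls, endothelial markers to 4707 to 5421 and 4050 to 5625, and lymphocyte markers to 2692 to 2935 and 2686 to 3231. Summed signals ran over all list members on the array, also those too dim to be tested. Of the 15 lymphocyte markers 9 were too dim, so the lymphocyte values do not show how many such cells were present. Of 5 erythrocyte genes, Hba-a1, Hbb and Hbb-b1 fell 4.2-fold, 4.99-fold and 5.17-fold, and the list summed to 7081 to 14089 on nodules and 27826 to 53444 on controls, so haemoglobin RNA differed along with every comparison to control. The part of these cells in the other results was not tested.

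Among the 15 largest falls were Obp3, Cyp2c11 and Cyp4a2 of the list of sex-dimorphic genes. Of 25 tested sex-dimorphic and growth hormone dependent genes 17 were called lower and 1 higher (median -1.48). Obp3, an odorant-binding lipocalin of the alpha-2u globulin family made by male rat liver, gave 13585, 20374, 18413, 11348 and 19975 on controls 1 to 5 and 163, 327, 640, 355 and 185 on nodules 1 to 5. The fall was 55.3-fold (-5.79 ± 0.42, adjusted p = 2.26e-10, limma), and nodules 1 and 5 were under 200. Mup4l3, of the related major urinary protein family, fell 24.7-fold from 23304, 26901, 33080, 22156 and 27712 to 256, 2094, 2091, 1859 and 663. Cyp2c11, the male-specific P450, fell 14.2-fold, with 1087, 2083, 4269, 4224 and 1636 on the nodules and 27914, 27479, 43418, 36119 and 32330 on the controls. Cyp2c12, the female-specific P450, was the member that rose, 16.7-fold, with 14120, 14478, 9344, 13405 and 15967 against 890, 1013, 880, 400 and 1006. Car3, the muscle-type carbonic anhydrase abundant in male liver, fell 7.88-fold from 34814 ± 2438 to 5214 ± 3205 (SD, n = 5). Ghr, the growth hormone receptor, fell by 1.23 and Socs2, a feedback inhibitor of its signal, by 1.13 on the log2 scale. Igfals, the serum partner of IGF that growth hormone induces, fell 3.62-fold. Genes of the Mup and Cyp2c families are near copies of each other, so a probe may read more than its named gene.

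Some other members of the IGF axis rose. Igfbp1, an IGF-binding protein that insulin represses, rose 5.86-fold from 720, 453, 499, 1070 and 1367 on controls to 4249, 4511, 3829, 5505 and 4070 on nodules, Igfbp3 3.49-fold and Igfbp7 2.5-fold. Irs3, an insulin receptor substrate of rodents, was under 200 on every nodule (183, 176, 194, 176 and 197) and 1220, 560, 1428, 892 and 1199 on controls 1 to 5, a fall of at least 5.04-fold. Of 9 tested members 3 rose and 3 fell.

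Of 35 tested cytochrome P450 genes of families 1 to 4, 16 were called lower and 1, Cyp2c12, higher (median -0.89). Cyp3a23-3a1, an inducible enzyme of drug oxidation, gave 23600, 25542, 18738, 11673 and 16204 on controls and 805, 1724, 2011, 3981 and 1842 on nodules, a 10.1-fold fall, and a second probe of it was lower as well (log2 fold change -3.75). Cyp3a9 fell 11.5-fold and Cyp1a2, the oxidase of aromatic amines, 8.98-fold from 6118, 6733, 5946, 6969 and 6433 to 397, 585, 1004, 1279 and 630. Cyp4a2, a fatty acid omega-hydroxylase, fell 9.63-fold from 3942, 4395, 5472, 5010 and 4297 to 249, 377, 573, 879 and 521. In each of these genes the lowest signal was on nodule 1 and the highest on nodule 4, and no nodule reached a control. Dhrs7l1, a short-chain dehydrogenase, fell 16.1-fold (-4.01 ± 0.33) and Fabp7, the brain-type fatty acid binding protein, 8.21-fold.

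**Figure D3:**
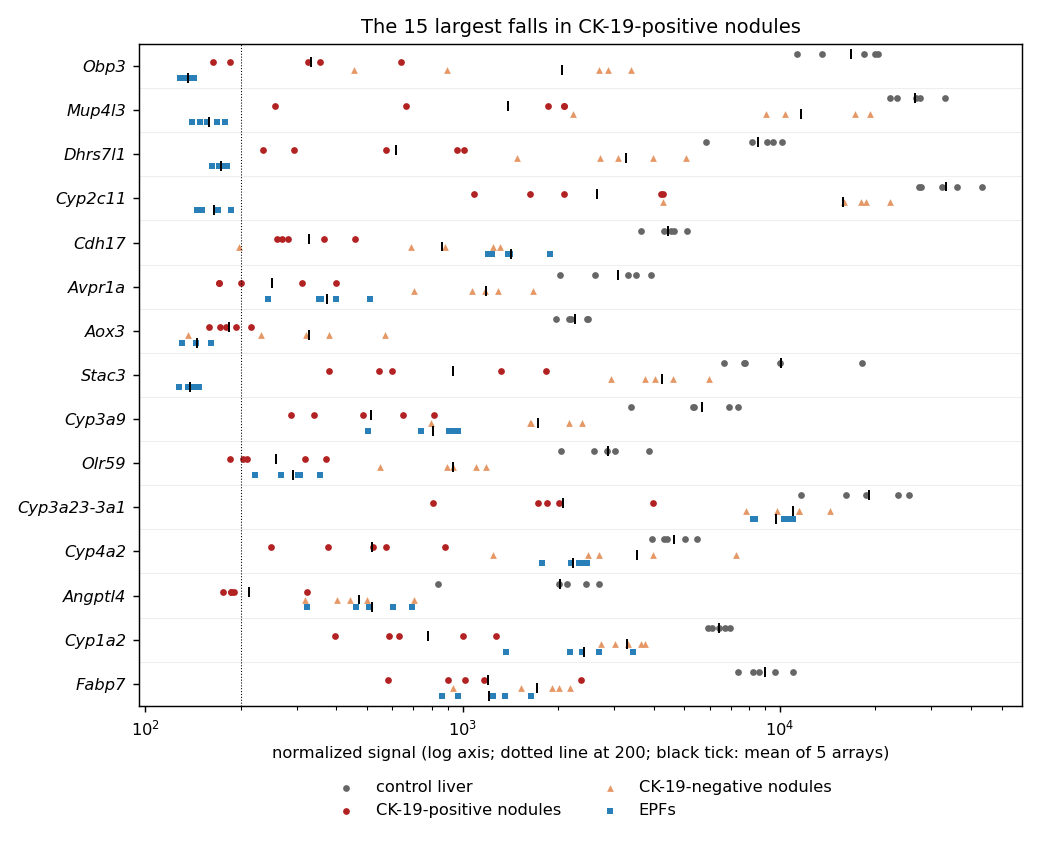
Normalized signal (log axis) of the 15 genes with the largest falls, 1 point per array in 4 groups of 5 arrays; black ticks are group means and the dotted line marks 200. All CK-19-positive nodules lay under all controls for each gene, while EPFs lay under the CK-19-positive nodules for Obp3, Mup4l3, Dhrs7l1, Cyp2c11 and Stac3.

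Of 16 tested genes of bile acid synthesis and conjugation 8 fell and none was called higher by limma or the methods' t-test, with 1 higher at an unadjusted p under 0.05 (median -1.01). Cyp8b1, the 12-alpha-hydroxylase that sets cholic acid, fell 7.33-fold with 1286, 606, 1912, 2928 and 1038 on nodules 1 to 5 and 12100, 12295, 10056, 9729 and 6567 on controls 1 to 5. Slc27a5, the bile acyl-CoA synthetase, fell 7.85-fold from 19781, 20161, 19190, 20479 and 21403 to 1386, 1720, 3015, 5666 and 2765. Nodule 4 was the highest nodule in both. Acox2 and Amacr, peroxisomal enzymes that shorten the side chain, fell 3.17-fold and 2.85-fold, and Cyp7a1, the rate-limiting enzyme, by 1.25 on the log2 scale. Nr1h4, the bile acid receptor FXR, fell 2.55-fold from 1259 ± 105 to 497 ± 70 (SD, n = 5).

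Some genes of both zones of the liver lobule fell. Of 15 tested pericentral genes 6 fell and 1 rose (median -0.80), and of 20 tested periportal genes 6 fell and none was called higher by limma or the methods' t-test, with 2 higher at an unadjusted p under 0.05 (median -0.69). Oat, ornithine aminotransferase of the pericentral rim, fell 7.99-fold, with 893, 1105, 2190, 2037 and 926 on nodules and 9261, 10427, 11592, 8875 and 13357 on controls. Gulo, which makes ascorbate, fell 4.29-fold, and Slc13a3, a dicarboxylate carrier, 4.72-fold. With the chip in the fit, the Gulo log2 fold change was -1.32 in place of -2.10. Rhbg, an ammonium channel of the same zone, rose 4.69-fold from 299, 431, 290, 239 and 416 to 1163, 1712, 1237, 1826 and 1885. On the periportal side G6pc1, glucose-6-phosphatase, fell 7.8-fold with 1105, 964, 1504, 2900 and 1677 against 11910, 10900, 10363, 14840 and 11278. Pck1, phosphoenolpyruvate carboxykinase, fell 3-fold, Hal, histidine ammonia-lyase, 2.9-fold, and Tat, tyrosine aminotransferase, 2.77-fold, though Tat was -0.92 on chip 1 alone and not called.

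Of 11 tested genes of gluconeogenesis and glycogen 4 fell and 1 rose. Ppp1r3b, which targets the phosphatase of glycogen synthase, fell 4.27-fold from 4804, 3690, 5198, 3931 and 5616 to 970, 543, 1867, 1460 and 996. Slc37a4, the glucose-6-phosphate carrier, fell 2.01-fold and Ugp2, UDP-glucose pyrophosphorylase, rose 2.07-fold, and both lay near the threshold: without a single array the log2 fold change of Slc37a4 went down to -0.92 (nodule 2) and that of Ugp2 to 0.88 (nodule 1, control 4), and Ugp2 was 0.50 on chip 1 alone, with arrays of both groups overlapping. In glycolysis Pklr, the liver pyruvate kinase, fell 2.72-fold and Ldha 2.04-fold, while Aldoa rose 2.12-fold and Gpi 2.03-fold, and 9 of 13 tested genes were not called. Without control 5 neither glycolytic rise was called (0.99 and 0.97), and Ldha was -0.89 with the chip in the fit and -0.94 without nodule 1. Gpi also lost its call with the chip as a fixed term, and when control 2 or nodule 2, 4 or 5 was left out. Ldha also lost its call on chip 1 alone, and when control 3, control 4 or nodule 5 was left out. In the promoters, part of the binding site of the hepatocyte factor HNF1 (GTTAAT, then any base, then ATT, on either strand) was present in 5 of 254 windows of genes called lower (1.97%), in 1 of 241 of those called higher (0.415%), in 0.41% of the genes tested and in 0.346% of all promoters. G6pc1 (GRCr8 chr10:86807409-86807658, plus strand) was among the 5, with the letters 234 bases before the start, shown in capitals within the 250 bases before it. The others were Habp2, Lipc, Prodh2 and Serpina4.
G6pc1: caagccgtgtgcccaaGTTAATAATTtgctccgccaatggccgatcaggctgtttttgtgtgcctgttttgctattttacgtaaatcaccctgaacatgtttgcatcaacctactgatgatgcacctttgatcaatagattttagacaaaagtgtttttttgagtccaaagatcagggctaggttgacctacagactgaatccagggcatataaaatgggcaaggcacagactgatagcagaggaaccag

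Some enzymes that break down amino acids and fat also fell. Of 43 tested genes of the urea cycle and amino acid breakdown 11 were called lower and none higher by limma or the methods' t-test, with 2 higher at an unadjusted p under 0.05 (median -0.65). By adjusted p alone 30 of the 43 were lower, beside 22.6% of all genes tested. Gnmt, glycine N-methyltransferase, fell 3.99-fold from 24216 ± 3375 to 6665 ± 3150, Kynu, kynureninase, 3.76-fold, Agxt, alanine-glyoxylate aminotransferase, 3.49-fold and Nags, whose product switches on the urea cycle, 3.17-fold. Cps1, Ass1 and Asl, enzymes of the cycle itself, had log2 fold changes of -0.54, -0.66 and -0.55, and Arg1 of 0.46, with none called. Of 29 tested genes of fatty acid oxidation and PPAR-alpha targets 9 fell and 1 rose (median -0.62). Angptl4, a secreted inhibitor of lipoprotein lipase, fell 9.1-fold with 187, 176, 191, 324 and 186 on nodules and 2685, 2009, 2139, 2448 and 839 on controls, where control 5 was lowest and nodule 4 highest in its group. G0s2, an inhibitor of lipolysis, fell 5.81-fold, and Pdk4, which holds back pyruvate oxidation, 3.98-fold. Acaa2, a mitochondrial thiolase, was the member that rose, by 1.22 on the log2 scale, and was not called on chip 1 alone.

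In lipogenesis 6 of 15 tested genes were called lower (median -0.75), but 3 were with the arrays of chip 1 alone and 2 with the chip in the fit. Dgat2, of triglyceride synthesis, fell 2.56-fold from 4821, 5068, 4625, 4693 and 6641 to 1516, 1418, 2897, 2748 and 1889. Elovl5, a fatty acid elongase, was 365, 317, 1084, 772 and 2119 on controls 1 to 5, where controls 1 and 2, the ones on the chip of the nodules, were lowest, and 205, 340, 289, 196 and 229 on the nodules. The groups overlapped, and its log2 fold change was -0.47 on chip 1 alone in place of -1.57. Srebf1, the transcription factor of lipogenesis, fell 2.14-fold, with a log2 fold change of -0.58 on chip 1 alone and -0.93 without control 5. Of 17 genes of cholesterol synthesis and its control 3 fell, Insig2, Sc5d and Nsdhl (4.01-fold, 2.21-fold and 2.12-fold), and Sc5d was -0.97 without nodule 2.

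Secreted plasma proteins were divided. Of 33 tested carriers and acute phase proteins 13 fell and 1 rose (median -0.45). The apolipoproteins Apoc2, Apoa5, Apom and Apoa2 fell 5.59-fold, 4.85-fold, 4.38-fold and 3.71-fold, and Afm, the vitamin E carrier afamin, 3.76-fold from 13056, 13357, 14009, 15106 and 14248 to 2744, 3829, 4611, 4297 and 3366. Fgl1, a fibrinogen-like hepatokine, fell 5.75-fold from 3691 ± 892 to 723 ± 463 (SD, n = 5). Lbp, the acute phase protein that binds lipopolysaccharide, was the member that rose, by 1.46 on the log2 scale, a call that ended with the chip in the fit. Alb and Ttr, the major products of hepatocytes, had log2 fold changes of 0.42 and -0.25 and were not called. In complement and coagulation 7 of 37 tested genes fell and none was called higher by limma or the methods' t-test, with 1 higher at an unadjusted p under 0.05 (median -0.72). C6, of the membrane attack complex, fell 4.53-fold with 872, 910, 1081, 1864 and 1058 against 4539, 5088, 5141, 6023 and 4519, Mbl2, mannose-binding lectin, 3.99-fold and C4bpb 3.26-fold.

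Transcription factors of hepatocytes changed in part. Of 21 tested, 6 were lower and 1, Nr1i3 (the xenobiotic receptor CAR), was higher (median -0.60). The Nr1i3 rise, at a log2 fold change of 1.01, was not called without control 4, nodule 2 or nodule 3, nor in any fit that took account of the chip. Foxa3, a pioneer factor, fell 2.86-fold with 332, 316, 398, 305 and 309 on nodules and 1101, 911, 1065, 803 and 881 on controls. Creb3l3, a membrane-bound factor of lipid genes, fell 2.69-fold. Cebpa fell 2.61-fold, with 631, 421, 1021, 879 and 972 on controls 1 to 5 and 332, 288, 347, 244 and 236 on nodules, and its log2 fold change was -0.77 with the chip in the fit. Hnf4a, the master factor of the hepatocyte, had a log2 fold change of -0.12, and Foxa2 of -0.35; neither was called.

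Among adhesion, junction and receptor genes 8 of 27 tested fell and 3 rose, and 5 fell with the study's filter, with a floor of 300 or with the chip in the fit. Cdh17, a cadherin first described in rat liver and intestine, fell 13.8-fold from 4319, 5104, 4525, 3646 and 4635 to 270, 261, 457, 367 and 282. Avpr1a, the vasopressin receptor, fell 12.7-fold with 171, 171, 313, 398 and 200 against 2609, 2027, 3528, 3921 and 3315, and Adra1b, an adrenergic receptor, 2.69-fold. The signals of both groups were far apart in these 3 genes. Egfr, the epidermal growth factor receptor, fell 2.44-fold to between 168 and 215, and its log2 fold change was -0.57 when signals under 300 were raised to 300. Cd151, Itgb1 and Gjb2 rose by 1.25 ± 0.12, 1.14 and 1.14 on the log2 scale. Olr59, annotated as an olfactory receptor, fell 11.3-fold and Stac3, an adaptor known from muscle, 11.9-fold.

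Few genes of proliferation and protein synthesis passed 2-fold. Of 30 tested cell cycle genes 3 rose, Ccnb2, Ccnd1 and Stmn1 (2.8-fold, 2.24-fold and 2.19-fold), with a list median of 0.44. By adjusted p alone 18 of the 30 were higher, beside 23.4% of all genes tested. The Ccnd1 log2 fold change was 0.54 on chip 1 alone and 0.91 without control 5 in place of 1.16, with 2244, 2165, 1340, 1319 and 710 on controls 1 to 5. Ddit4, a stress-induced inhibitor of mTOR signalling, was the 1 of 10 p53 response genes called (2.51-fold higher), and Cdkn1a had a log2 fold change of 0.18. Neither Stmn1 nor Ddit4 was called when signals under 300 were raised to 300. Of 6 tested YAP and TEAD target genes 1 rose, Ccn2 (2.52-fold), and 1 fell, Nt5e (2.1-fold, with -0.98 without nodule 2 or control 1). The other 4 were not called, and the list median was 0.32. Of 59 ribosomal protein genes 3 were called higher (median 0.45), a share close to the 4.95% of all genes tested. These were Rps3, Rpl17 and Rpl7a, of which 1 was called without control 1, where Rpl17 was 0.99 and Rpl7a 0.98. By adjusted p alone 39 of the 59 were higher, and the summed signal of the list was 688694 to 771315 on nodules and 512465 to 595443 on controls, without overlap. No gene of the proteasome (40 tested), of oxidative phosphorylation (65) or of the unfolded protein and heat shock response (27) was called by limma or the methods' t-test, and 16, 18 and 14 of them differed at an unadjusted p under 0.05, beside 52.8% of all genes tested. A single proteasome gene was called lower when any of controls 2, 3 and 4 or nodules 3, 4 and 5 was left out. Of 22 tested genes of metallothionein, heme and iron 2 rose and 2 fell (median 0.15), beside 4.95% and 4.9% of all genes tested, and 18 were not called. Ftl1, ferritin light chain, rose 2.33-fold and Slc40a1, the iron exporter ferroportin, 2.47-fold. Tfr2 and Alad fell 2.05-fold and 2-fold, with log2 fold changes of -0.94 and -0.91 without nodule 2. In antigen presentation RT1-Db1, Cd74 and RT1-T24-4 rose and RT1-S3 fell among 18 tested. Cd74 gave 1141, 1667, 1044, 3981 and 960 on controls 1 to 5, with control 4 inside the range of the nodules (3114, 3162, 3086, 2626 and 4643), and 1 rise was called without control 5, where Cd74 was 0.96 and RT1-T24-4 0.92, against 5 without control 4.

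**Figure D4:**
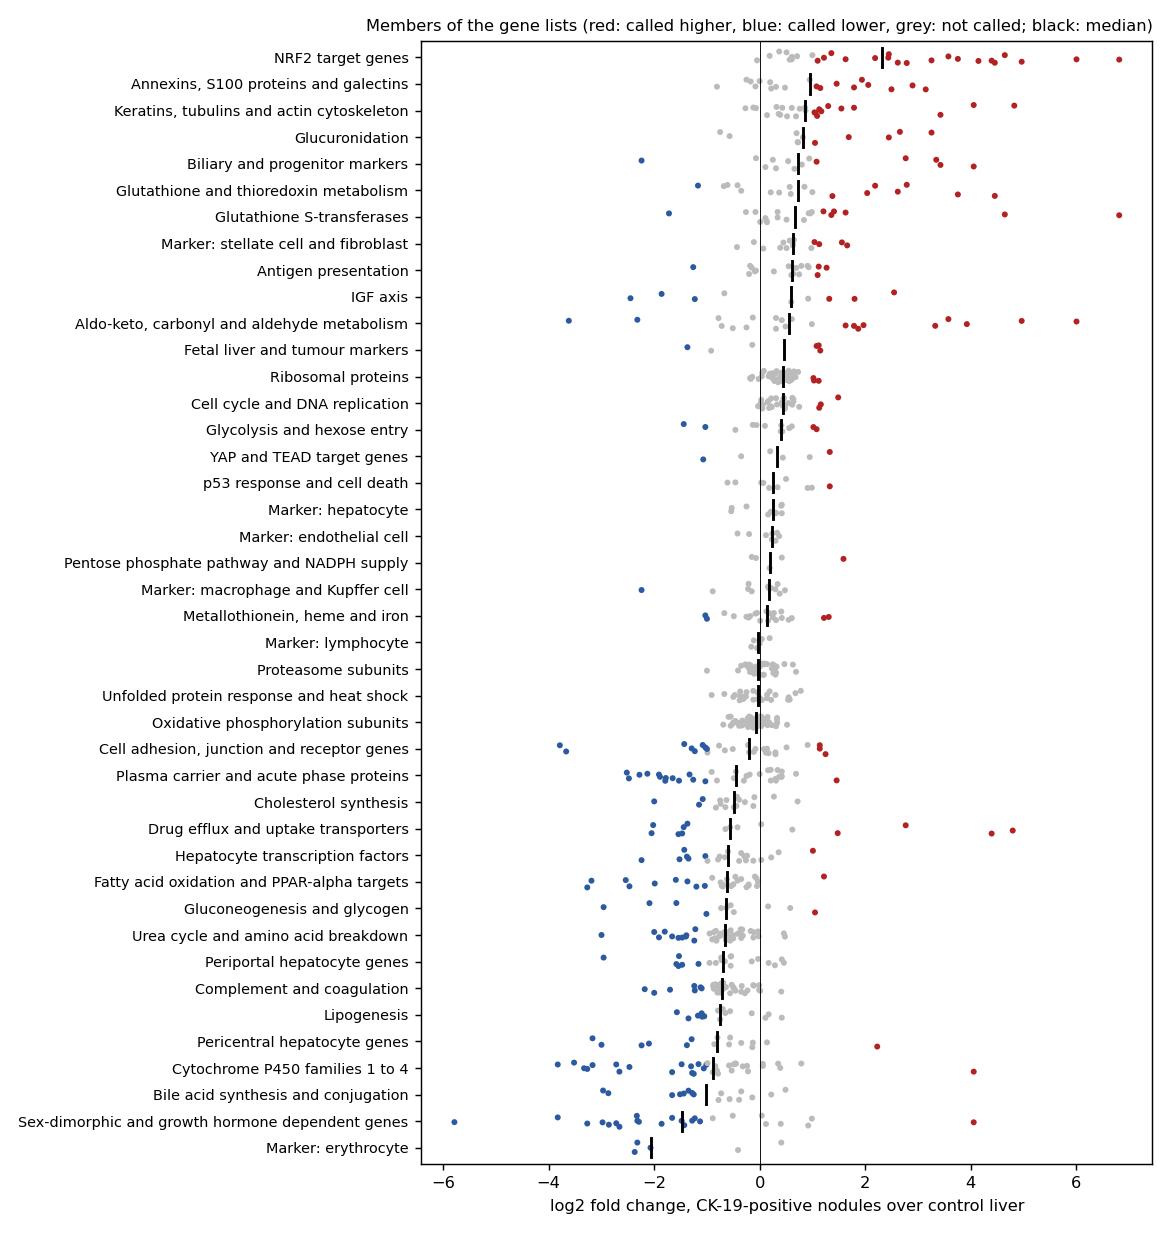
Each point is a tested gene of a list, at its log2 fold change of CK-19-positive nodules over control liver (x axis); red points were called higher, blue lower, grey not called, and black bars are list medians. NRF2 target genes had the highest list median at 2.32, and the sex-dimorphic list (-1.48) and the erythrocyte markers (-2.07) the lowest.

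The change was then set against CK-19-negative nodules, taken at the same time. Both comparisons use the same arrays of CK-19-positive nodules. Of the CK-19-negative nodules 4 were on chip 2 and 1 was on chip 1, which held all 5 CK-19-positive nodules. Chip and nodule type thus largely coincide in this contrast, for the counts and for each gene. Between the nodule groups 146 genes were higher (2.39%) and 146 lower (2.39%) in CK-19-positive nodules, 292 in all (4.79%), and arrays did not overlap for 18.9% of all genes tested. With the chip as a fixed term and no EPFs, 260 genes were called, 133 higher and 127 lower. Of the 302 genes higher than control, 131 (43.4%) were also higher than in CK-19-negative nodules, and of the 299 lower than control, 130 (43.5%) were also lower. Gstp1, with the largest change against control, differed by 0.91 ± 0.11 on the log2 scale (adjusted p = 2.49e-06, limma) on its brighter probe, with 26758, 22621, 22294, 21344 and 19371 on CK-19-negative nodules 1 to 5. As the CK-19-positive signals of this probe lay at the top of the scale, the difference may be understated. On the dimmer probe it was 1.13 ± 0.13 (2.19-fold, adjusted p = 1.5e-06, limma), with 15348 to 17786 on CK-19-positive nodules and 5603 to 9478 on CK-19-negative nodules. Nefl differed by 4.15 ± 0.39 (adjusted p = 8.22e-08, limma), with 147, 407, 195, 139 and 201 on the CK-19-negative nodules. Defb1 differed by 4.06 ± 0.39, with 315, 1168, 801, 153 and 1453, and Abcb1b by 3.60 ± 0.39, with 141, 1309, 525, 217 and 849. CK-19-positive nodules were above every CK-19-negative nodule in all 3 genes.

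Many of the genes already described were also called between the nodule groups. Of the NRF2 target list 12 of 28 were higher than in CK-19-negative nodules (median 0.83), with Akr1b8 at 3.02 ± 0.35, Gpx2 at 2.00 ± 0.16, Gclm at 1.78 ± 0.22 and Nqo1 at 1.71 ± 0.17. Ctse, Tceal9, S100a11 and Pla2g7, a lipoprotein-associated phospholipase, differed by 3.01 ± 0.25, 2.63 ± 0.24, 2.49 ± 0.27 and 2.78 ± 0.33. In the other direction the log2 differences of Mup4l3, Cyp4a2, Cyp3a2 and Cyp2c7 were -3.12 ± 0.50, -2.65 ± 0.33, -2.63 ± 0.46 and -2.60 ± 0.34. Slc25a25, a mitochondrial ATP-magnesium carrier, differed by -2.53 ± 0.28, with 543, 545, 1177, 1202 and 688 on CK-19-positive nodules, 3232, 2560, 5544, 6969 and 5725 on CK-19-negative nodules and 6156, 3465, 4856, 9078 and 3916 on controls. Of the sex-dimorphic and growth hormone dependent genes 16 of 25 were lower and 1, the female-specific Cyp2c12, was higher. Marco, Irs3, Fabp7 and Aox3 fell against control but were not called between the nodule groups, with log2 differences of -0.52 ± 0.20, -0.16 ± 0.16, -0.60 ± 0.27 and -0.68 ± 0.23.

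Against EPFs, which were taken earlier and hybridised on a chip of their own so that chip, time and lesion cannot be told apart, 209 genes were higher (3.43%) and 167 lower (2.74%), 376 in all (6.16%). Of the genes higher than control 88 (29.1%) were also higher than in EPFs and 3 were lower, and of the genes lower than control 35 (11.7%) were also lower and 21 were higher. Pcp4, Ctse and Defb1 were above EPFs by 3.33 ± 0.31, 3.11 ± 0.25 and 3.05 ± 0.39 on the log2 scale. Igfbp3 gave 5175, 6090, 3545, 3789 and 3195 on CK-19-positive nodules, 367, 394, 399, 352 and 294 on EPFs and 1127, 1218, 1286, 1223 and 1218 on controls, so EPFs lay below both. Cyp2c11 was 151, 170, 167, 187 and 146 on the EPFs, all under 200, and thus below the nodules although both were below control. Abcb1b was 7339, 9633, 10694, 12347 and 8808 on the EPFs and differed by -0.83 ± 0.39, which was not called. Of the NRF2 target list 3 of 28 were higher than in EPFs and none lower (median 0.39). Gstp1 differed by -0.05 ± 0.11 on its brighter probe and was not called, with both groups near the top of the scale. On its dimmer probe EPFs gave 8089 to 12472, below the 15348 to 17786 of CK-19-positive nodules. Of 30 tested cell cycle genes 18 were lower than in EPFs and none higher (median -1.10). In all, 60 genes were higher and 28 lower in CK-19-positive nodules than in each of the other 3 groups.

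The spread among nodules was described in the same way as that among controls. The median SD of log2 signal over all genes tested was 0.166 among CK-19-positive nodules and 0.192 among controls, and the SD was larger among nodules for 2533 genes (41.5%). The nodules were all on chip 1 and the controls on chips 1, 2 and 3. Spread between chips thus enters only the control SD, and the values do not show which group was more alike. On nodule 2, 388 genes lay at least 2-fold above the control mean and 417 at least 2-fold below, on nodule 1 350 and 343, on nodule 5 338 and 327, on nodule 4 287 and 255, and on nodule 3 256 and 212. Nodules 3 and 4 were thus closest to control by this count. For the NRF2 target list, the median log2 difference from the control mean was 2.28, 2.72, 2.35, 1.93 and 2.07 on nodules 1 to 5, so every nodule carried the rise. For bile acid genes it was -1.10, -0.88, -0.93, -0.91 and -1.04.

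Among called genes an SD above 1 on the log2 scale was measured for 7 genes in the nodules. Mup4l3 spread most, from 256 on nodule 1 to 2094 on nodule 2. Cyp3a2 gave 858, 3999, 4511, 9633 and 2200 on nodules 1 to 5 and 20067, 25898, 17493, 17424 and 26056 on controls 1 to 5, with nodule 4 nearest to the controls. Cyp2c7 gave 3776, 2368, 10994, 17007 and 4314, again with nodules 3 and 4 highest. Pla2g7, dim on every control, gave 4263, 761, 982, 1168 and 488, with nodule 1 far above the rest and a rise of at least 5.63-fold. Aldh3a1, an aldehyde dehydrogenase induced by aromatic compounds, gave 847, 1446, 333, 291 and 286 and was raised most on nodules 1 and 2. Apoa2 and Apoc2 had SDs just under 1, at 0.99 and 0.97, and are not among those 7. Apoa2 was lowest on nodule 2 (9430, 2752, 16356, 12873 and 9141), as was Apoc2 (3519, 1311, 7046, 6485 and 3420). Trim54, a muscle ring-finger protein, was 234, 371, 346, 247 and 1513 on the nodules and 163, 151, 122, 131 and 151 on the controls. Its rise was not called without nodule 5, with a log2 fold change of 1.04, nor on chip 1 alone.

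**Figure D5:**
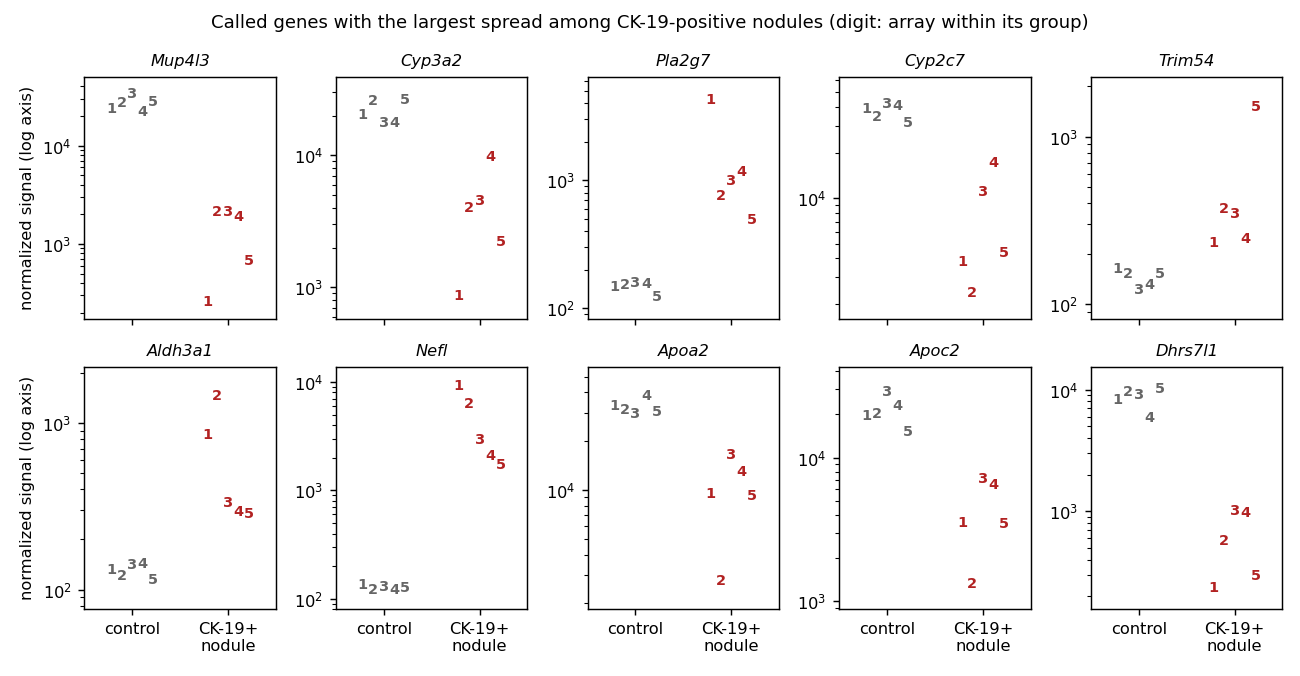
Normalized signal (log axis) of the 10 called genes with the largest SD among CK-19-positive nodules, with controls on the left and nodules on the right of each panel; each digit is the array's number within its group. Nodule 1 was lowest for Mup4l3 and Cyp3a2 and highest for Pla2g7 and Nefl, and nodule 5 alone was high for Trim54.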

How the data were processed

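Total RNA of laser-microdissected lesions and control liver was amplified and hybridised on RatRef-12 BeadChips. The authors read them with BeadStudio 3.0.19.0 (submitters' processing notes) and deposited quantile-normalized intensities on a linear scale, from 95.5 to 44882.6 (median 157), for 22523 probes; 13793 name 1 gene, and the brightest probe over all 20 arrays stood for each of 13337 genes. A table before normalization has 40 value columns that match no sample and was not used. Log2 intensities were fitted with limma 3.58.1 (R 4.3.3) over 20 arrays and 4 group means, for 6102 genes above 200 on at least 5 arrays, with Benjamini-Hochberg adjustment over all of them. The fit was tested on simulated data. Groups came from the labels. Genes were named as the 15 largest rises and 15 largest falls without overlap of arrays, within each gene list the 5 called members that changed most, the 10 largest differences in each direction between nodule groups, the 10 widest spreads, Krt19 and Gstp1; other list members were named after their values were seen. The contrast, members and lists were chosen with earlier results of these data known. Other filters, floors, offsets, thresholds, chip terms, the methods' t-test and arrays left out in turn were tried as alternatives. Promoters were RefSeq windows of GRCr8. Figures were drawn with matplotlib 3.10.9.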

Additional observations from a re-analysis of the deposited data

Results flagged for a closer look

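Among the genes named above, 306 sets of 5 arrays were searched for an array far from the other 4, and 20 were found (6.54%), close to the 5% of sets that chance alone gives. Control 5 held 9 of them. It was lowest of the controls for Angptl4 (839), Baat (7220), Creb3l3 (2332), F10 (1062), Fgl1 (2211) and S100a6 (160), and highest for Dgat2 (6641), Gclc (3369) and Pcp4 (228). Baat conjugates bile acids and F10 is a clotting factor. Control 4 was lowest for Cd24 (198) and for the female-specific Cyp2c12 (400).

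Nodule 4 stood apart in 4 genes. It was lowest for Akr7a3 (14696) and highest for Angptl4 (324), C6 (1864) and Egfr (215), each time on the side of the controls. Nodule 1 was highest for Krt19 (7686) and Rpl17 (17493) and lowest for Ftl1 (35648). Nodule 2 was lowest for the sterol desaturase Sc5d (1316), and nodule 5 was highest for Trim54 (1513).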

How the results depend on the processing

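The counts of called genes against control stayed within 1.5 times of 601 under other filters on dim genes, offsets, floors, chip terms, the methods' t-test (596) and every probe by itself, from 508 with the study's filter to 612. They exceeded that in 3 settings, each less strict by construction or stretching low signals. With the 10% point of all signals subtracted, 1084 genes were called against control (579 higher, 505 lower), 565 against CK-19-negative nodules (326 and 239) and 926 against EPFs (488 and 438), and 12 of 30 cell cycle genes were higher in place of 3. By adjusted p alone the counts were 2810 (1428 and 1382), 1761 (932 and 829) and 2873 (1464 and 1409). At 1.5-fold they were 1324 (662 higher, 662 lower), 761 (388 and 373) and 1279 (649 and 630). Leaving out 1 control or CK-19-positive nodule at a time gave 564 to 639 genes against control, 253 to 321 against CK-19-negative nodules and 373 to 400 against EPFs; CK-19-negative nodules and EPFs were not left out in turn. With the chip as a fixed term and no EPFs the counts were 594 and 260.

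The 153 genes named by the rule kept their direction in every setting in which they were tested (143 of them under the study's filter, 152 with signals over 300 on 5 arrays), and 28 lost the call in at least 1. No paired analysis was possible because the array numbers only follow the order of deposition and pair no samples across groups. Normalization from signals before quantile scaling was not run, since those columns match no sample. Signals near 200 are close to the background of the array, so folds of dim genes are understated. Quantile scaling gives every array the same total, so a change of total RNA per cell would not show.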
